A study of Mus musculus with 12 samples.

Results

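The myogenic cells of the mouse hind limb joint, muscle satellite cells and myoblasts, were taken from single-cell RNA sequencing (scRNA-seq) of CD45-negative joint cells by the genes that mark them. A cell counted when it had more than 500 and fewer than 5000 detected genes, at least 1 unique molecular identifier (UMI, 1 counted mRNA molecule) in at least 2 of the 4 genes Pax7, Myod1, Myf5 and Chodl, and UMIs in at most 1 of the 5 endothelial genes Pecam1, Cdh5, Kdr, Emcn and Egfl7. Of the 20213 cells inside the gene limits, 185 met the rule, and 21042 cells were deposited. The cells came from the joints of wild-type C57BL/6 male mice of 8 to 10 weeks. Serum transfer-induced arthritis (STIA), in which serum of arthritic K/BxN mice provokes joint inflammation that later clears by itself, was started by 100 µl of serum into the vein. Libraries labelled rest were made on day 0 from mice without serum. After serum, those labelled peak were made on days 7 to 9, those labelled resolving after 15 days and those labelled resolved after 22, with 3 libraries a label and the pooled joints of 3 animals in each. Dissected joints were digested with collagenase and dispase and cells carrying the blood cell protein CD45 were sorted away. The labels name the tissue as synovium and the cells as stromal, and no muscle was labelled.

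Satellite cells are the stem cells of skeletal muscle and lie between the fibre and its basement membrane. The transcription factor Pax7 marks them, Myf5 marks commitment to the muscle lineage, and Myod1 rises when they activate and become myoblasts, after which myogenin drives differentiation and fusion into fibres. Notch signals from the fibre keep them at rest, and enzymatic digestion of tissue is itself known to induce early response genes and Myod1 in them.

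The cells were unevenly spread over the 12 libraries, and the spread followed the numeric suffix of the cell barcodes more than the label. The libraries with suffixes 1 to 3 held 77 of the cells at shares of 1.48% to 2.19%, and those with suffixes 10 to 12 held 81 at 1.33% to 1.83%. Between them, the libraries with suffixes 4 to 6 held 7 cells (0.0612% to 0.230%) and those with suffixes 7 to 9 held 20 (0.0726% to 0.718%). What the suffix stands for is not stated in the sources used here. Each label had 1 library in 3 of the 4 sets of suffixes, and the 12 libraries held 7969872 to 17047322 UMIs each. Only 6 libraries gave at least 10 cells, the number needed for a summed profile: rest 1 (30 cells), peak 1 (20), resolving 1 (27), peak 3 (34), resolving 3 (19) and resolved 3 (28). No cell barcode was shared between libraries. In these tissue samples a smaller share of cells of a type in the suspension cannot be told apart from poorer release of that type on digestion.

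**Figure D1:**
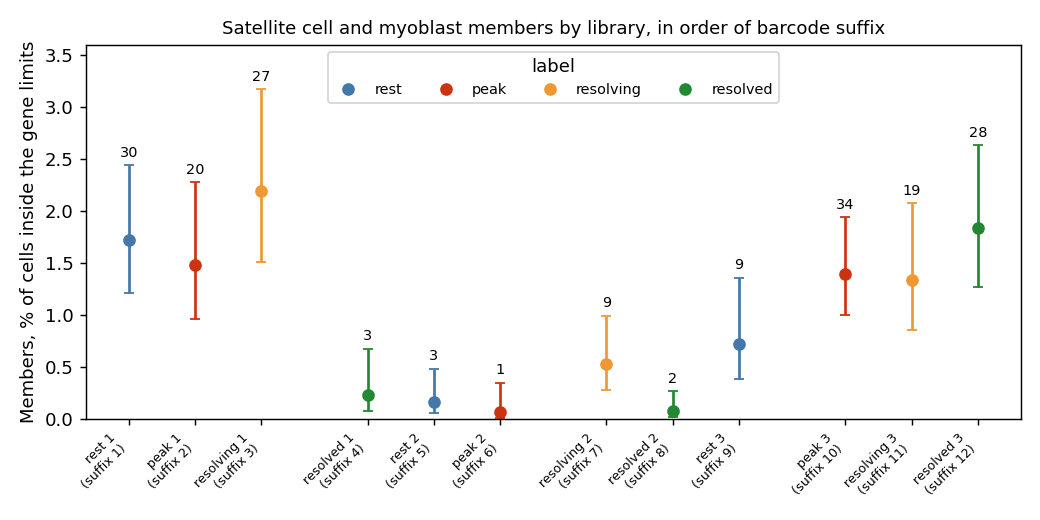
Share of myogenic cells among the cells inside the gene limits (vertical axis, percent) in each of the 12 libraries, in order of barcode suffix, with 95% Wilson intervals that cover counting error only and the number of cells above each point. The 6 libraries with suffixes 1 to 3 and 10 to 12 lie between 1.33% and 2.19%, and the other 6 lie at or below 0.718%.

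The 4 genes of the rule are given as a description, since they chose the cells. Chodl, a membrane lectin, had a UMI in 170 of the 185 cells (91.9%), Myod1 in 117 (63.2%), Pax7 in 92 (49.7%) and Myf5 in 65 (35.1%). Pax7 and Myod1 were seen together in 42 cells, Pax7 without Myod1 in 50, Myod1 without Pax7 in 75, and 18 cells carried Myf5 and Chodl alone. Much of this rested on single molecules: of the 92 cells with Pax7, 65 had 1 UMI of it, and the same held for 34 of the 65 with Myf5, 32 of the 117 with Myod1 and 46 of the 170 with Chodl. A cell without a UMI of a gene can therefore not be taken as a cell that lacked it. In all other cells Chodl had a UMI in 2.86%, Myod1 in 0.449%, Pax7 in 0.0749% and Myf5 in 0.030%, and in endothelial cells (at least 3 of the 5 endothelial genes), which should lack the muscle factors, Myod1 in 0.423%. The endothelial cells had a median of 3314 UMIs and all other cells one of 5429, against 2649 in the myogenic cells, so the myogenic cells were the shallowest of these classes.

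Summed over the cells of a library and scaled to CPM, the usual count normalised to the total of each sum, Myod1 stood at 2580 in rest 1, 2039 in peak 1, 1522 in peak 3, 2758 in resolving 1, 1305 in resolving 3 and 1173 in resolved 3. Pax7 stood at 268, 84.3, 213, 218, 416 and 224 CPM in the same order, Myf5 at 256, 152, 204, 185, 435 and 260 CPM, and Chodl at 1302, 843, 873, 850, 889 and 887 CPM. The library with the most Pax7 and Myf5, resolving 3, had the second lowest level of Myod1. Chodl was highest in rest 1 and Myod1 lowest in resolved 3, and the 2 libraries of peak and the 2 of resolving differed from each other as much as labels did in Pax7 and Myod1.

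Genes outside the rule showed where the threshold fell. Cdh15 (M-cadherin, which joins satellite cells to their fibre) was detected in 45.3% of the 64 cells with 3 or 4 rule genes and in 44.6% of the 121 cells with exactly 2, but in 4.60% of the 652 cells with 1 and 0.225% of the 17306 cells with none. Desmin (Des), the intermediate filament of muscle cells, fell over the same step from 76.6% and 81.0% to 16.7% and 6.83%. Cells with 1 rule gene had it by Chodl in 552 of 652 cases, and 57.1% of them carried at least 5 of the 7 fibroblast markers, against 9.38% and 6.61% of the cells with 3 or 4 and with 2 rule genes. The 4 cells with enough rule genes that were turned away had at least 2 endothelial genes, and no cell outside the gene limits had 2 rule genes. Fgfr4 and Vcam1 were less even above the threshold, at 40.6% and 75.0% of the cells with 3 or 4 rule genes against 33.1% and 58.7% of those with 2, and 5.21% and 26.1% of those with 1.

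**Figure D2:**
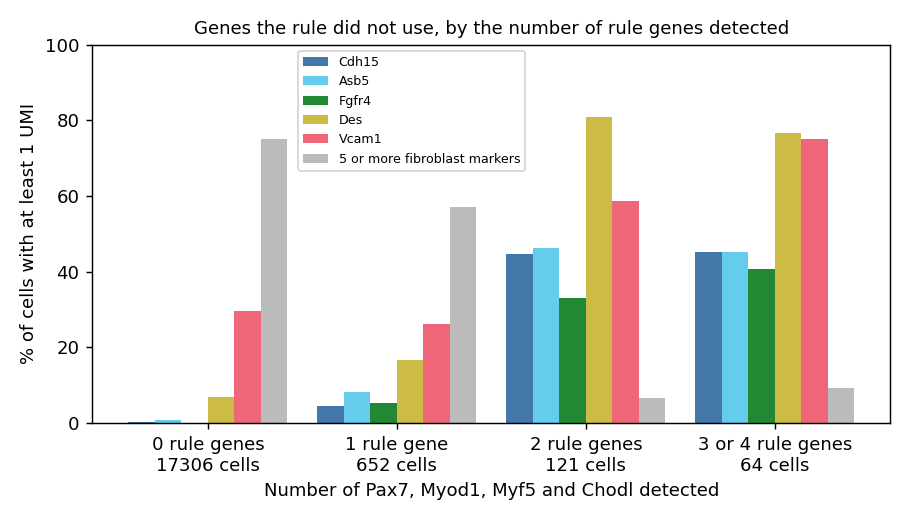
Share of cells (vertical axis, percent) with at least 1 UMI of 5 satellite cell and muscle genes that the rule did not use, and with at least 5 of the 7 fibroblast markers (grey), by the number of rule genes detected (horizontal axis). Cdh15 lies at 45.3% and 44.6% in the cells with 3 or 4 and with 2 rule genes and at 4.60% or lower in the cells with fewer.

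To ask which other genes set the myogenic cells apart, their sums in the 6 libraries were compared with the sums of all other cells, of fibroblast cells (at least 5 of 7 fibroblast markers and no rule gene detected, 13011 cells) and of pericyte cells (at least 3 of 8 pericyte markers and no rule gene, 942 cells) of the same library, with the library as a block, in edgeR's two-sided quasi-likelihood test. A gene was called when its Benjamini-Hochberg adjusted p was below 0.05 and its difference exceeded 0.5 on the log2 scale in either direction. Against all other cells, 982 of 11932 genes (8.23%) were higher and 1538 (12.9%) lower. Against fibroblast cells 1055 of 10878 (9.7%) were higher and 1559 (14.3%) lower, and against pericyte cells 683 of 3604 (19%) were higher and 818 (22.7%) lower. Of the 3580 genes tested in all 3 comparisons, 562 were higher in each, but the 3 share the sums of the myogenic cells. With scaling factors taken from all genes tested in place of those above 50 CPM, the first comparison gave 680 higher and 2279 lower, so the higher share of its calls moved from 39.0% to 23.0%, and the second gave 823 and 2024. The rule genes were left out of these tests. The cells were chosen from the same counts by genes of the same programme, so a called gene is one that went with the rule genes across cells.

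The surface receptors of satellite cells were mostly higher. Of the 23 genes of this list tested against all other cells, 15 were higher and 3 lower, with a median log2 fold change of 2.23 against −0.31 over all genes tested, and the median was the same with Sdc3, which had no UMI in the myogenic cells, at its bound. Against fibroblast cells the counts were 14 and 3 of 22 (median 2.16, all genes −0.24), and against pericyte cells 14 and 3 of 18.

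Cdh15 (chr8:122847966-122867397 on GRCm38, plus strand) led among the adhesion molecules. It stood at 329 CPM in rest 1, 270 in peak 1, 155 in peak 3, 153 in resolving 1, 246 in resolving 3 and 107 in resolved 3, against 0.471 to 2.46 CPM in all other cells of the same libraries. Every library of myogenic cells lay above every sum of other cells, at a log2 fold change of 7.59 (SE 0.35, edgeR, Benjamini-Hochberg adjusted p = 8.38e-102). Vcam1, the integrin ligand through which satellite cells bind to other cells, lay between 455 and 1341 CPM (median 736) against 42.8 to 116 CPM in other cells (log2 fold change 3.53, SE 0.20, edgeR adjusted p = 3.52e-67). Its share of cells with a UMI was 64.3% in the myogenic cells, 34.0% in fibroblast cells and 10.3% in endothelial cells, so it was no private marker. The tetraspanin Cd82 ranged from 330 to 775 CPM (median 607) against 37.5 to 66.9 (log2 fold change 3.51, SE 0.20, edgeR adjusted p = 3.3e-64), and Ncam1 from 101 to 262 (median 181) against 21.8 to 49.2 (2.53, SE 0.25, edgeR adjusted p = 1.46e-22). In all 3 genes the 2 kinds of cells did not overlap in any of the 6 libraries.

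Among the growth factor and niche receptors, Fgfr4, the fibroblast growth factor receptor of the myogenic lineage, lay at 54.5 to 208 CPM (median 160) against 0.236 to 1.45 in other cells (log2 fold change 7.28, SE 0.39, edgeR adjusted p = 6.09e-76). The calcitonin receptor Calcr, which holds satellite cells at rest, had 13 UMIs in the 6 libraries, 6 of them in peak 1, and stood at 8.96 to 101 CPM (median 19.2) against at most 0.13 (7.91, SE 0.77, edgeR adjusted p = 1.49e-22). Tnfrsf12a, the receptor of the cytokine TWEAK, ranged from 719 to 1416 CPM (median 1085) against 172 to 278 (2.23, SE 0.18, edgeR adjusted p = 4.6e-32), and was detected in 79.5% of the myogenic cells against 51.9% of the others. Sdc4, a heparan sulphate proteoglycan of the satellite cell surface, was higher by 1.94 (SE 0.17) and dystroglycan (Dag1) by 1.89 (SE 0.22), with all 6 libraries above. Integrin alpha 7 (Itga7), a laminin receptor of muscle, was higher than in all other cells by 2.88 (SE 0.44, edgeR adjusted p = 2.07e-09), but its 19.4 to 89.6 CPM overlapped the 21.3 to 101 CPM of the pericyte cells.

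Some surface genes often listed for satellite cells went the other way. Cd34 lay at 84.3 to 385 CPM (median 172) in the myogenic cells against 346 to 536 in all other cells, a log2 fold change of −1.35 (SE 0.21, edgeR adjusted p = 6.06e-09), and only resolved 3 reached into the range of the others. Against pericyte cells, which had 8.1 to 133 CPM, Cd34 was higher by 1.37 (SE 0.32, edgeR adjusted p = 0.00433). Cd9 was lower than in all other cells by 0.70 on the log2 scale (log2 fold change −0.70, SE 0.15, edgeR adjusted p = 2.64e-05). Sdc3 had no UMI in the myogenic cells of the 6 libraries and was at least 4.10-fold lower than in all other cells, on a floor of 3 counts over the group. Cxcr4 had 3 UMIs, all in peak 3, and was not tested.

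Some genes of the neuromuscular junction were higher and others were close to absent, and no list of them was tested as a group. Chrna1, the alpha subunit of the muscle acetylcholine receptor, lay at 60.9 CPM in rest 1, 101 in peak 1, 126 in peak 3, 131 in resolving 1, 75.7 in resolving 3 and 26.9 in resolved 3 against 0.471 to 4.69 in all other cells (log2 fold change 6.08, SE 0.46, edgeR adjusted p = 1.92e-37). Rapsn, the scaffold that clusters the receptor, ranged from 62.7 to 134 CPM (median 97.9) against 0.851 to 1.89 (6.17, SE 0.43, edgeR adjusted p = 1.06e-43). Musk, the receptor kinase that organises the junction, ranged from 9.7 to 65.4 CPM (median 44.2) against 0.943 to 2.01 (4.75, SE 0.55, edgeR adjusted p = 4.44e-16). Of Chrna1, Rapsn and Musk none overlapped the other cells in any library, although Chrna1 was detected in only 11.4% and Musk in 9.19% of the myogenic cells, and 46.5% of the Chrna1 UMIs came from 2 cells. In pericyte cells Chrna1 and Musk had no UMI in the 6 libraries. Other junction genes had next to none in the myogenic cells, with 1 UMI of the receptor subunit Chrnd and 0 of Chrng and Agrn over the 6 libraries.

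The promoters of Chrna1, Musk and the muscle filament gene Des are shown because E-boxes, the sites at which Myod1 and its relatives bind, are known in muscle promoters. Below are the 150 bases before the start site from RefSeq (GRCm38.p6), 5′ to 3′ on the strand of the gene, with each E-box CAGCTG, a letter string that reads the same on both strands, in capitals. They lie at chr2:73580339-73580488 on the minus strand for Chrna1, chr4:58285812-58285961 on the plus strand for Musk and chr1:75360142-75360291 on the plus strand for Des.
Chrna1: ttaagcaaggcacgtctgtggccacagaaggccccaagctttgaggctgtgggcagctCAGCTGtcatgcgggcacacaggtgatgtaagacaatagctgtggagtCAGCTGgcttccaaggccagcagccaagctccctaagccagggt
Musk: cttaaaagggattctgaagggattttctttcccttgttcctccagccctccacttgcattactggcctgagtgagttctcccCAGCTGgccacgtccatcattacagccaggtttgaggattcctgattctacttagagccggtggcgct
Des: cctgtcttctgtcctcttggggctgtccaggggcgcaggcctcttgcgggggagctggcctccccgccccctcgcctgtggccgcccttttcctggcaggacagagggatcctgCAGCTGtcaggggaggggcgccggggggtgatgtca
The string began 92 and 44 bases before the start of Chrna1, 68 before that of Musk and 36 before that of Des, and was absent from the 300-base promoter window of Cdh15. It was no more frequent among the called genes as a whole. The 300-base window held it in 16.3% of all 32851 promoters, in 15.6% of the 973 promoters of genes higher than in all other cells and in 12.7% of the 528 promoters of genes higher in all 3 comparisons.

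Desmin (Des), whose promoter is shown above, was the muscle gene carried by most of the cells. It was detected in 147 of the 185 (79.5%), against 7.13% of all other cells, 3.70% of fibroblast cells and 47.2% of pericyte cells, which use desmin too. Its level was 840 CPM in rest 1, 809 in peak 1, 970 in peak 3, 1363 in resolving 1, 832 in resolving 3 and 690 in resolved 3, against 34.8 to 77.7 in all other cells and 81.2 to 232 in pericyte cells. The 6 libraries of myogenic cells lay above both ranges, by 4.10 on the log2 scale (SE 0.20, edgeR adjusted p = 3.39e-90) and by 2.95 over pericyte cells (SE 0.23, edgeR adjusted p = 1.51e-06).

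Among the other transcription factors of the muscle lineage, 3 of the 9 tested were higher and 2 lower than in all other cells (all genes tested 8.23% and 12.9%). Msc (musculin), a repressor of myogenic factors, lay at 136 to 349 CPM (median 169) against 3.39 to 8.46 (log2 fold change 5.15, SE 0.29, edgeR adjusted p = 6.05e-68). Myf6, a late myogenic factor, was higher too, but 11 of its 14 UMIs were in resolving 1. Mef2c, a factor of fibre maturation, was lower (−1.90, SE 0.35, edgeR adjusted p = 7.24e-07), with 13 of its 16 UMIs in resolving 1, and Mef2d had 2 UMIs in all. Myogenin (Myog), which opens terminal differentiation, had 2 UMIs in the 6 libraries, in rest 1 and peak 3, and was not tested.

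**Figure D3:**
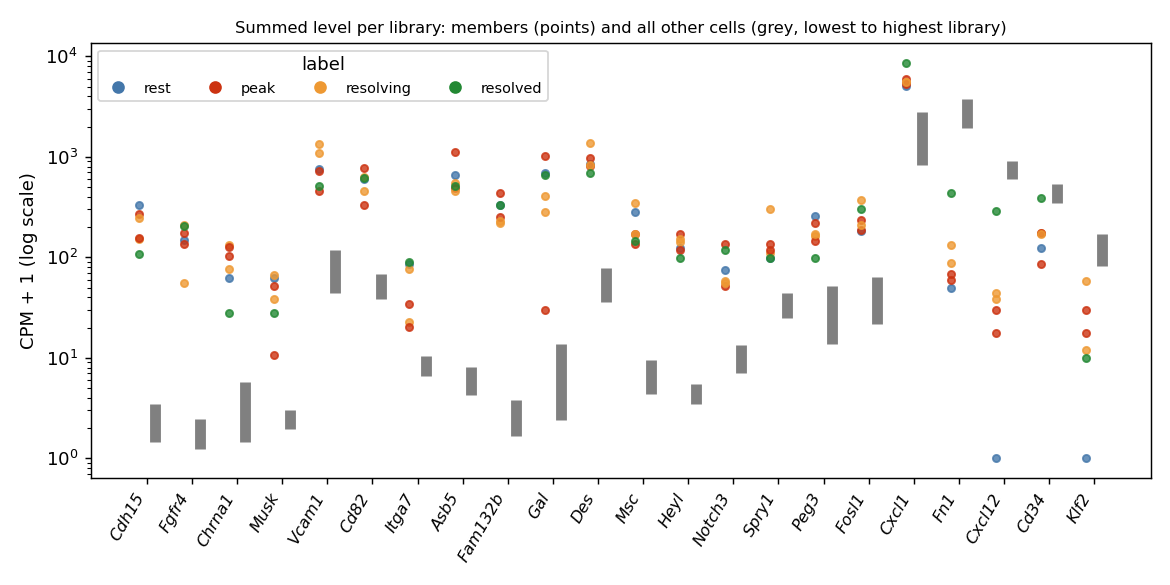
Summed level (vertical axis, CPM + 1 on a log scale) of 22 genes in the myogenic cells (members) of the 6 libraries with at least 10 of them, points coloured by label, beside the lowest to highest level in all other cells of the same libraries (grey bars). From Cdh15 to Cxcl1 every point lies above the grey bar, and for Fn1, Cxcl12 and Klf2 every point lies below it.

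Beyond the named receptors, the largest differences fell on genes of varied function. By the naming rule these were Calcr, Cdh15, Fam132b, Rhoh, Fgfr4, Traf3ip3, Pde1c, Asb5, Ap3b2, Chrdl2, Hs6st2 and Gal among the higher genes. Asb5, an ankyrin repeat protein of muscle, was the most widely detected, in 45.9% of the myogenic cells against 1.14% of all others, at 454 to 1112 CPM (median 528) against 3.3 to 7.17 (log2 fold change 6.84, SE 0.23, edgeR adjusted p = 6.93e-184). Fam132b, which encodes the secreted myokine erythroferrone, lay at 218 to 438 CPM (median 290) against 0.651 to 2.82 (7.39, SE 0.28, edgeR adjusted p = 5.97e-151). Rhoh, a small GTPase without enzymatic activity better known in lymphocytes, lay at 16.9 to 303 CPM (median 131) against 0.354 to 1.78 (7.30, SE 0.40, edgeR adjusted p = 3.69e-73), while the immune marker Ptprc had no UMI in the same cells. Gal, the neuropeptide galanin, varied most, with 694 CPM in rest 1, 1011 in peak 1, 29.1 in peak 3, 403 in resolving 1, 284 in resolving 3 and 663 in resolved 3, still above the 1.41 to 12.8 of all other cells in each library (6.57, SE 0.25, edgeR adjusted p = 5.07e-148). Galanin was seen in 22.2% of the cells, and 2 cells held 30.9% of its UMIs.

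Chrdl2, a secreted inhibitor of bone morphogenetic proteins, lay at 37.8 to 303 CPM (median 94.4) against 0.208 to 1.94 in all other cells (log2 fold change 6.66, SE 0.44, edgeR adjusted p = 1.38e-48). Among the 12 lower genes with the largest differences, Cytl1, Mfap4, Scrg1, Epyc, Timp4 and Cldn5 had no UMI in the myogenic cells of the 6 libraries. On a floor of 3 counts over the group, these were at least 48.3-fold (Cytl1), 29.0-fold (Mfap4), 23.2-fold (Scrg1), 16.7-fold (Epyc), 16.2-fold (Timp4) and 14.6-fold (Cldn5) lower than in all other cells. These genes belong to cartilage, connective tissue and endothelium. The rule limited endothelial genes in the myogenic cells but not in all other cells. A lower level of endothelial genes was therefore in part fixed by the selection.

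**Figure D4:**
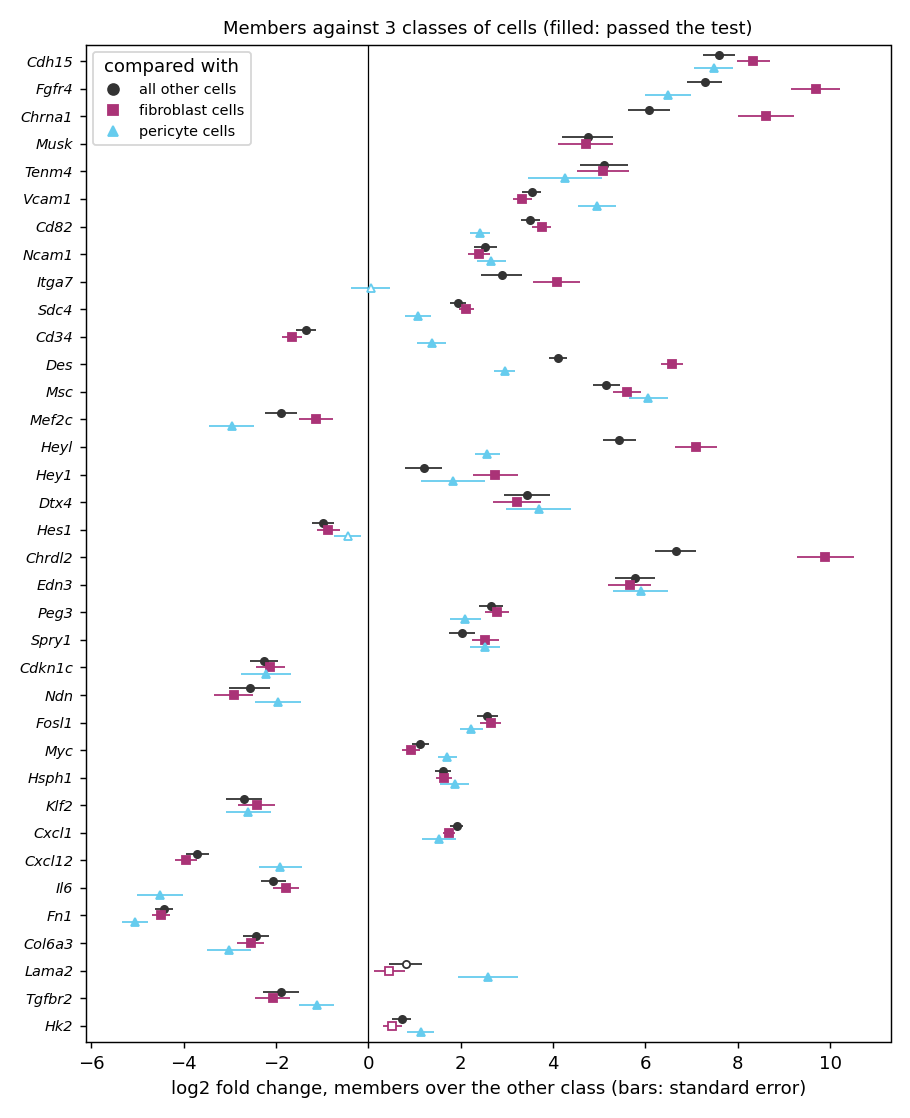
Log2 fold change (horizontal axis) of 36 genes in the myogenic cells (members) over all other cells (circles), fibroblast cells (squares) and pericyte cells (triangles), with standard errors and filled symbols where the test was passed. Points are left out where a gene was not tested or had no UMI in 1 of the 2 sums. Cdh15, Fgfr4, Des and Heyl lie to the right in all 3 comparisons and Fn1, Cxcl12 and Klf2 to the left, while Cd34 lies on both sides.

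Some genes of the Notch pathway were higher and others were not. Of 15 genes tested against all other cells, 6 were higher and 1 lower (all genes tested 8.23% and 12.9%), with a median log2 fold change of 0.67. Against fibroblast cells 6 of 13 were higher and 1 lower (all genes 9.7% and 14.3%). The counts of lower genes lay near the shares of all genes. Heyl, a Notch target kept up in resting satellite cells, stood at 122 CPM in rest 1, 169 in peak 1, 116 in peak 3, 142 in resolving 1, 151 in resolving 3 and 98.5 in resolved 3, against 2.45 to 4.49 in all other cells (log2 fold change 5.43, SE 0.36, edgeR adjusted p = 1.67e-48). The receptor Notch3 ranged from 50.6 to 136 CPM (median 64.9) against 6.01 to 12.4 (3.23, SE 0.37, edgeR adjusted p = 1.89e-16) and overlapped the 54.8 to 171 CPM of the pericyte cells, for which it is a marker. Notch1 ranged from 16.9 to 62.7 CPM against 7.17 to 15 (1.91, SE 0.48, edgeR adjusted p = 0.000716), and Dtx4, a Notch-pathway ubiquitin ligase, was higher by 3.44 (SE 0.49, edgeR adjusted p = 9.26e-11). Hes1, the Notch target shared with most cell types, went down instead, at 24.3 to 185 CPM against 149 to 240 (−0.99, SE 0.24, edgeR adjusted p = 0.000518), lower in 5 of 6 libraries.

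Genes described in resting satellite cells did not move as 1 group. Of 21 tested against all other cells, 9 were higher and 6 lower (all genes tested 8.23% and 12.9%), with a median log2 fold change of 0.11. Spry1, an inhibitor of growth factor signalling needed for quiescence, lay at 97.4 to 303 CPM (median 113) against 23.7 to 43.1 (2.03, SE 0.28, edgeR adjusted p = 6.52e-12), and the imprinted gene Peg3 at 98.5 to 256 (median 167) against 12.8 to 51.2 (2.65, SE 0.26, edgeR adjusted p = 2.74e-22). Edn3, the peptide endothelin 3, lay at 18.9 to 146 CPM against 0.761 to 2.71 (5.77, SE 0.43, edgeR adjusted p = 2.19e-39). In each of these genes the 6 libraries lay above all sums of other cells. The cell cycle inhibitor Cdkn1c (p57) was lower, at 10.9 to 71.7 CPM against 115 to 309 (−2.26, SE 0.30, edgeR adjusted p = 2e-12), and so was necdin (Ndn), at 0 to 26.9 CPM against 72.6 to 98 (−2.57, SE 0.44, edgeR adjusted p = 1.01e-07), with every library below.

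Early response genes, which tissue digestion induces, were mixed in the same way. Against all other cells 9 of 25 were higher and 6 lower (all genes tested 8.23% and 12.9%). With scaling factors from all genes tested the counts were 9 and 10. Fosl1, the AP-1 subunit that outlasts Fos, lay at 183 to 371 CPM (median 222) against 20.6 to 62.3 (log2 fold change 2.57, SE 0.22, edgeR adjusted p = 1.44e-28), and the heat shock protein gene Hsph1 at 1090 to 1765 (median 1142) against 249 to 598 (1.62, SE 0.17, edgeR adjusted p = 5.11e-19). Myc was higher by 1.12 (SE 0.19, edgeR adjusted p = 7.99e-08). The factor Klf2 was nearly absent, with 9 UMIs in the 6 libraries and 0 to 56.8 CPM against 80.4 to 169 (−2.69, SE 0.39, edgeR adjusted p = 1.44e-10). Fos itself was lower than in the other cells by 0.62 on the log2 scale (log2 fold change −0.62, SE 0.13, edgeR adjusted p = 2.56e-05), Socs3 by 0.91 (log2 fold change −0.91, SE 0.17, edgeR adjusted p = 2.61e-06) and Dusp1 by 0.95 (log2 fold change −0.95, SE 0.18, edgeR adjusted p = 1.18e-06), while Jun did not pass (−0.24, SE 0.14, edgeR adjusted p = 0.253). These genes were measured in every cell type after the same digestion, and its part in the differences was not tested.

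Of the inflammatory ligands, 4 of 21 were higher and 11 lower than in all other cells, with 6 of the 21 without a UMI in the myogenic cells. The median log2 fold change was −1.93 as fitted and −1.17 over 18 genes with those at 0 set to their bound. Cxcl1, a chemokine that attracts neutrophils, stood at 5063 CPM in rest 1, 6000 in peak 1, 5323 in peak 3, 5604 in resolving 1, 5544 in resolving 3 and 8555 in resolved 3, against 820 to 2796 in all other cells. It was higher by 1.91 (SE 0.14, edgeR adjusted p = 5.76e-43). Rest 1, from mice without serum, had the lowest of the 6 values and still lay above every sum of other cells. Its neighbour on chromosome 5, Cxcl2, was higher by 2.08 (SE 0.20, edgeR adjusted p = 2.23e-23) at 97 to 2327 CPM, with peak 3 below the other cells of its library. Reads shared by chemokine paralogs could have been split or dropped in counting. Cxcl5 rested on 1 library, with all 17 of its UMIs in rest 1.

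Cxcl12, the stromal chemokine of stem cell niches, went the other way, at 0 CPM in rest 1, 16.9 in peak 1, 29.1 in peak 3, 43.6 in resolving 1, 37.8 in resolving 3 and 287 in resolved 3 against 604 to 906 in all other cells (log2 fold change −3.71, SE 0.25, edgeR adjusted p = 3.38e-48). Il6 lay at 0 to 170 CPM (median 35.3) against 143 to 348 (−2.06, SE 0.27, edgeR adjusted p = 1.76e-12) and below the 483 to 2675 CPM of the pericyte cells. Ccl11 (−2.61, SE 0.38, edgeR adjusted p = 2.7e-10) and Csf1 (−1.93, SE 0.32, edgeR adjusted p = 6.1e-08) were lower as well. Resolved 3 held the highest Cxcl12 and also the largest sum of fibroblast markers in its myogenic cells, and the part of the latter was not tested.

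The niche matrix genes were mostly lower. Of 22 tested against all other cells 14 were lower and 1 higher, and against fibroblast cells 14 of 20 were lower and none higher (median log2 fold change −1.90). Fibronectin (Fn1), a ligand of satellite cell integrins and Sdc4, lay at 48.7 to 439 CPM (median 77.3) against 1919 to 3752 in all other cells, below in all 6 libraries (−4.43, SE 0.20, edgeR adjusted p = 3.13e-106). Col6a3 (−2.43, SE 0.29, edgeR adjusted p = 2.62e-15) and nidogen 1 (Nid1; −2.60, SE 0.41, edgeR adjusted p = 4.91e-09) were below in all 6 libraries too. Lama2, the laminin chain of the muscle basement membrane, stood apart with 21.8 to 101 CPM (median 52.7) against 25.6 to 39 in all other cells, which did not pass (0.81, SE 0.36, edgeR adjusted p = 0.0883), and against 0 to 20.2 CPM in pericyte cells, which did (2.60, SE 0.65, edgeR adjusted p = 0.00655). Without the 14 cells that carried at least 5 fibroblast markers, 15 of 22 matrix genes were lower than in all other cells.

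Markers of other cell types in the myogenic cells were measured with the same sums. The 7 fibroblast markers added up to 2239 CPM in rest 1, 6253 in peak 1, 2007 in peak 3, 5909 in resolving 1, 8249 in resolving 3 and 12335 in resolved 3, against 36957 to 50120 in all other cells. Dcn, the most widespread of them, had a UMI in 50.3% of the myogenic cells, 93.6% of all other cells and 61.5% of endothelial cells, which should lack it. With every cell thinned to 2000 UMIs, the myogenic share of 44.8% lay above the endothelial share of 42.0%. At least 5 of the 7 fibroblast markers were seen in 7.57% of the myogenic cells and in 3.70% of the endothelial cells. The source of these UMIs was not tested. Of the 6 endothelial markers Kdr, Emcn and Tie1 were at 0, with a sum of 0 to 26.9 CPM that the rule itself limited. Of the 8 immune markers 6 were at 0, among them Ptprc and Lyz2, and of the 6 Schwann cell markers 4 were at 0. The 8 pericyte markers, Notch3 among them, summed to 118 to 281 CPM against 361 to 552 in all other cells, and the 6 smooth muscle markers to 161 to 270 against 244 to 549. Haemoglobin and the other erythroid markers reached 86329 CPM in peak 3 against 219 to 627 in the other 5, where 2 cells held 97.8% of the Hba-a1 UMIs. Scrublet called 1 of the 185 cells a doublet, but it called only 51 of 20213 cells (0.252%). Whether its threshold suited these libraries was not tested, so the low count is no measure of doublets. By score, 10 of the 185 were among the 6% with the highest scores of their library.

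Most UMIs of the myofibre genes were in 2 cells. The 21 myofibre genes summed to 4161 UMIs in the 185 cells, and 89.7% of them were in 1 cell of resolving 1 with 3255 (23.7% of its 13715 UMIs) and 1 cell of peak 3 with 476 (15.1% of its 3157). Both had Myod1 and Myf5 but no Pax7 or Chodl, and 80 of the 185 cells had no UMI of a myofibre gene. With both cells, 8 of 19 myofibre genes were higher than in all other cells and none lower. All other cells held such cells as well, up to 9185 fibre UMIs in 1 cell, so the count without the 2 cells is not given. At least 1 fibre UMI was seen in 56.8% of the myogenic cells, 32.0% of all other cells and 34.5% of endothelial cells. Acta1 (skeletal actin) was high in the libraries of these 2 cells, at 97.4 CPM in rest 1, 118 in peak 1, 1183 in peak 3, 10946 in resolving 1, 265 in resolving 3 and 278 in resolved 3 against 191 to 781 in all other cells. Against fibroblast cells, in which Acta1 lay between 7.69 and 73 CPM, all 14 myofibre genes still tested without the 2 cells were higher (18 of 18 with them). In the muscle differentiation list 5 of 17 genes were higher than in all other cells and none lower. Embryonic myosin (Myh3), which marks new fibres, had no UMI in any of the 185 cells, which allows a share of cells with a UMI of up to 1.62%, and none in any other cell.

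Cell cycle genes made up 0.0429% of the UMIs of the myogenic cells, 0.0506% in all other cells and 0.0491% in fibroblast cells. In the myogenic cells 39.9% of these UMIs came from 2 cells. At least 3 of 24 cell cycle genes were detected in 5 of the 185 cells, counted as cycling, and all 5 were in libraries labelled rest: 1 in rest 1, 1 in rest 2 and 3 in rest 3. They carried 3 to 19 of the genes and all 5 held Myod1, in 1 to 10 UMIs, whereas Pax7 had 1 UMI in 2 of them. The deepest of the 185 cells, with 22861 UMIs and 4544 detected genes, was among them, in rest 3. The share of cycling cells was 23.3% ± 17.3 (SD, n = 3) at rest and 0 in the other 9 libraries, and each later label differed from rest with p = 0.1 (exact permutation test, two-sided, the smallest that 3 against 3 libraries can give, 0.3 adjusted over 9 tests of shares). Rest 2 and rest 3 held 3 and 9 myogenic cells, and the cells were counted without thinning to 1 depth. In the summed profiles 1 of 23 cell cycle genes was higher than in all other cells and none lower. It was Mki67, with 13 UMIs that were all in rest 1.

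Cells with a UMI of Myod1 were compared with those without in the same 6 libraries, to ask whether the 2 kinds differ elsewhere. None of 731 genes tested passed in either direction (0% called), with 80 at an unadjusted p under 0.05, and DESeq2 called none. Since Myod1 went undetected in cells that may have had it, the split is only in part one of biology. The rule also ties the split to Pax7, Myf5 and Chodl. A cell without Myod1 needed at least 2 of them, and a cell with Myod1 at least 1. Pax7 was seen in 50 of the 68 cells without Myod1 and in 42 of the 117 with it. The lowest adjusted p, 0.137 in edgeR with Benjamini-Hochberg adjustment, belonged to the fibre gene Tcap, whose highest library, at 2635 CPM in Myod1-detected cells, holds a cell with 3255 fibre UMIs. Vcam1 lay at 462 to 1868 CPM (median 861) in Myod1-detected and 313 to 747 (median 462) in Myod1-undetected cells, higher in 6 of 6 libraries (log2 fold change 1.07, SE 0.24, edgeR adjusted p = 0.281). The runt factor Runx1, known in activated satellite cells, lay at 414 to 584 CPM (median 479) against 54.9 to 327 (median 237), with no overlap (1.29, SE 0.32, edgeR adjusted p = 0.281). Fosl1 was at 213 to 554 against 31.1 to 219 CPM, above in 6 of 6 libraries (1.65, SE 0.48, edgeR adjusted p = 0.281), while Egr2 was below in 6 of 6 (−1.50, SE 0.41, edgeR adjusted p = 0.281). Over all myogenic cells Runx1 was higher than in all other cells by 1.64 (SE 0.20, edgeR adjusted p = 1.11e-14).

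The course of arthritis was followed first by the share of the cells. Myogenic cells made up 0.867% ± 0.788 (SD, n = 3) of cells at rest, 0.979% ± 0.796 at peak, 1.35% ± 0.835 when resolving and 0.712% ± 0.974 when resolved. The differences from rest were smaller than the spread between all libraries of a label, much of which lay between sets of suffixes, with p = 1, 0.6 and 0.9 in the exact two-sided permutation test, in which 3 against 3 libraries cannot go below 0.1. Taken as deviations from the mean of the suffix set, peak lay below rest by 0.248 percentage points (difference −0.248). The plain difference was 0.112 above. Each set lacked a label, so these deviations mix in the other labels, and shuffling them across sets gives no test of peak against rest. Only suffixes 1 to 3 and 4 to 6 held both labels. Within suffixes 1 to 3 the shares were 1.72% at rest, 1.48% at peak and 2.19% when resolving, and within suffixes 10 to 12 they were 1.39% at peak, 1.33% when resolving and 1.83% when resolved. Within each of these sets the 95% Wilson intervals overlapped. Within suffixes 4 to 6 they overlapped too, at 0.164% (3 cells) at rest, 0.0612% (1) at peak and 0.230% (3) when resolved. Within suffixes 7 to 9 resolved 2, at 0.0726% (2 cells, 0.0199% to 0.264%), lay below rest 3 at 0.718% (9 cells, 0.378% to 1.36%) and resolving 2 at 0.523% (9 cells, 0.275% to 0.990%), with no overlap. These intervals cover counting error only, and with 1 library a label in each set they give no test between labels. The share of myogenic cells with a UMI of Myod1 was 73.0% ± 23.7 at rest, 76.6% ± 20.3 at peak, 63.9% ± 15.4 when resolving and 59.1% ± 8.45 when resolved (n = 3 each, exact permutation p = 0.6, 0.7 and 0.5 against rest). These means weight each library equally, and the 100% of peak 2 and of rest 2 rested on 1 and 3 cells. Without peak 2 the difference between peak and rest turned from 3.61 to −8.11 points, and after thinning it was −9.75.

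Expression by label was tested in the 6 libraries with at least 10 of the cells, so rest and resolved each had 1 library, assumed to vary like the 2 of peak and the 2 of resolving. Rest 1 lay in suffixes 1 to 3 and resolved 3 in suffixes 10 to 12. Between these 2 libraries label and set of suffixes cannot be told apart. None of 1883 genes passed for peak, resolving or resolved against rest (0% called in each direction), with 38, 64 and 68 genes at an unadjusted p under 0.05 in edgeR, and DESeq2 called 0, 1 and 1. With the set of suffixes as a block, a fit that leaves 1 residual degree of freedom, 14 genes were called higher and 3 lower at peak, 51 and 13 when resolving, and 25 and 8 when resolved. Rest 1 held the high value of Stmn1, a microtubule protein of dividing cells, at 462 CPM against 0 to 37.8 in the other 5, and 62.2% of its UMIs in the myogenic cells came from 2 cells. Ccl7, a monocyte chemokine, stood at 73 CPM in rest 1, 118 and 107 at peak, 545 and 757 when resolving and 1254 when resolved (resolved against rest 4.13, SE 0.62, edgeR adjusted p = 0.616). Igfbp6 stood at 48.7 CPM in rest 1, 101 and 29.1 at peak, 894 and 1343 when resolving and 663 when resolved (resolving against rest 4.46, SE 0.81, edgeR adjusted p = 0.998). Prg4 (lubricin, the lubricant of the joint lining) and Pi16 (a marker of connective tissue fibroblasts) reached 475 and 511 CPM in resolved 3 against at most 359 and 21.8 in the other 5. All 4 of these genes were lower in the myogenic than in the fibroblast cells, where Prg4 lay at 5931 to 21181 CPM, and the fibroblast marker sum was itself highest in resolved 3 and resolving 3. Its part in these differences was not tested. In Pi16, 2 cells held 92.3% of the UMIs.

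**Figure D5:**
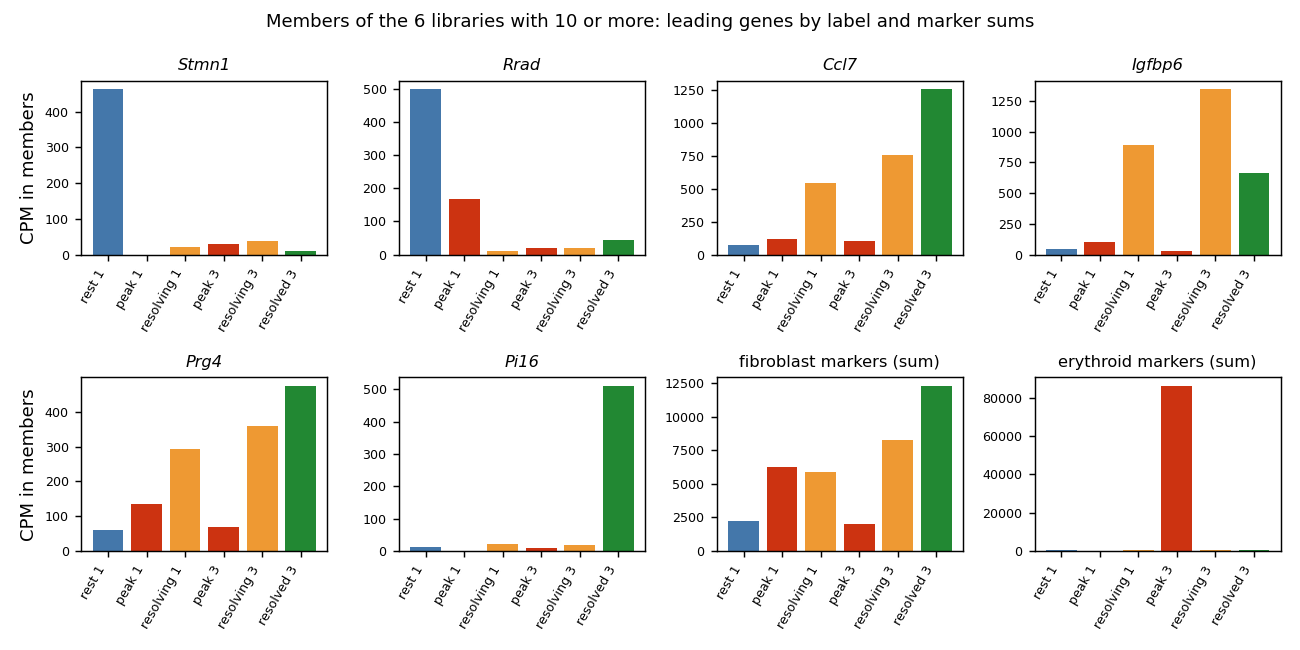
Level in the myogenic cells (vertical axes, CPM) of 6 genes that led the comparisons of labels without passing, and of the summed fibroblast and erythroid markers, in the 6 libraries with at least 10 of the cells, 1 bar per library coloured by label. Stmn1 is high in rest 1 alone (462 CPM), Ccl7 and Prg4 are highest in resolved 3, as is the fibroblast marker sum (12335 CPM), and the erythroid sum stands out in peak 3 (86329 CPM).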

How the data were processed

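The deposited values were counts: UMIs per gene and cell in 1 matrix per library, made by the authors with 10x Genomics 3′ version 2 kits and Cell Ranger on mm10 per the labels, with no normalization in the deposited counts. All 12 libraries (4 labels, 3 libraries each) were used, and no per-sample column was left out. The myogenic cells and the gene lists were chosen with earlier results of these data known.

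UMIs of the chosen cells were summed per library, for libraries with at least 10 of them, and compared in edgeR 4.0.16 (R 4.3.3; filterByExpr, quasi-likelihood test, Benjamini-Hochberg adjustment over all genes tested). Class comparisons had the library as a block, and label comparisons were fitted over the 6 libraries together. TMM scaling factors came from genes with a mean of at least 50 CPM, a choice made after TMM over all genes was found biased on simulated data with unequal depth, and the latter is among the alternatives. The rule genes and the genes that defined a class were left out of its tests. Shares were compared by exact two-sided permutation tests in scipy 1.17.1, over 9 tests, and their 95% Wilson intervals and limits at a count of 0 (3 counts) cover counting error only. Doublets were scored with Scrublet in scanpy 1.11.5 and not removed. P-values rest on the spread between libraries, each a pool of 3 animals. In edgeR this spread was shared over genes. The very small p-values of the class comparisons therefore do not measure the spread of the single gene, which was wide in Gal.

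Genes named beside those of the lists were the 12 largest changes each way among called genes that moved the same way in every library, without numbered gene models, haemoglobins and immunoglobulins. Genes shown for comparisons without calls were chosen after their values were seen. The alternatives were RLE factors, no filter on low counts, DESeq2 1.42.0, at least 3 rule genes, thinning to 2000 UMIs, removal of high doublet scores, the study's UMI limits, other blocks, other cell numbers and leaving out libraries. Chosen after seeing the data were the fits without fibre-rich cells, without cells rich in fibroblast markers, within sets of suffixes and with factors from all genes. Promoters were those of RefSeq on GRCm38.p6, and gene positions those of GENCODE. 1 gene of the lists is not reported here by name.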

Additional observations from a re-analysis of the deposited data

Results flagged for a closer look

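A different set of 7 satellite cell genes (Cdh15, Fgfr4, Megf10, Musk, Msc, Chrna1 and Chrdl2, at least 3 detected) picked 43 cells, of which 25 were among the 185 and 18 were cells that the rule leaves out. These 18 cells are signal outside the cells compared in the report. Zim1, an imprinted gene, differed from all other cells in opposite directions by label, with a mean difference of 0.33 on the log2(CPM + 50) scale in the peak libraries and −0.025 in the resolving libraries. Pdk4, a regulator of pyruvate use, did the same with 0.30 at peak and −0.064 when resolving. In both genes every peak library lay above and every resolving library below, the values rest on 0 or 1 UMI a library, and the difference between the labels was not tested.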

How the results depend on the processing

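The 185 cells, with a median of 2649 UMIs, gave 6 sums of 52854 to 111633 UMIs. Since 6 libraries held fewer than 10 of the cells, label comparisons had 1 library at rest and 1 when resolved. Of the 2287 values recomputed under alternatives, 2108 kept their direction and their side of the threshold, or stayed within the allowed range. The cause of the changes was not tested, beyond the fewer cells or libraries that some settings hold. With at least 3 rule genes the genes higher and lower were 394 and 618 against all other cells and 442 and 629 against fibroblast cells, with 327 higher against pericyte cells. Within suffixes 1 to 3 they were 514 and 846, 561 and 804, and 397 and 541 in the same order, and within suffixes 10 to 12 581 and 695, 585 and 744, and 401 and 471. DESeq2 called 941 genes lower against all other cells and 955 against fibroblast cells. Against pericyte cells, thinning gave 376 and 488 and the fit without library block 513 lower. Within suffixes 10 to 12 Jun stood at 0.19 (log2, all other cells). Cxcl5 had no UMI in the myogenic cells of these libraries, so its fitted −8.51 is no measured size. Gapdh stood at −0.054 with at least 3 rule genes and Aldoa at −0.11 without the 2 fibre-rich cells, a removal made in the myogenic cells only.

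For the split by Myod1, no filter on low counts gave 42 higher and 20 lower genes, at least 10 cells of both kinds 3 and 1, and at least 2 Myod1 UMIs 0 and 2. For peak, resolving and resolved against rest, no filter gave 18 and 5, 45 and 9, and 17 and 4, and DESeq2 called 1 gene higher each when resolving and resolved. Leaving out 1 library gave 0 to 4 genes higher at peak, the 4 without peak replicate 1. The replicate numbers coincide with the sets of suffixes in these 6 libraries, so the replicate block and the suffix block are 1 fit, with 14 and 3, 51 and 13, and 25 and 8 genes. Between samples with the same number, deviations correlated at r = −0.0595 over 2079 genes, a correlation across genes. It rests on 2 pairs (numbers 1 and 3 of peak and resolving), too few to show whether the numbers pair the samples. The main label fit had no such block.

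The difference in share from rest, in percentage points, was −0.0987 at peak and 0.0151 when resolved with at least 3 rule genes, and −0.248 at peak as deviations from the suffix mean. Leaving out 1 library moved it from −0.239 to 0.571 at peak, 0.0608 to 0.908 when resolving and −0.716 to 0.271 when resolved. The share with Myod1 differed at peak by −28.6 with at least 3 rule genes and −9.75 after thinning, when resolving by 1.41 as deviations from the suffix mean, and when resolved by 3.13 without cells rich in fibroblast markers. Leaving out 1 library gave −8.11 to 17.1, −17.7 to 4.49 and −22.5 to −0.317 in these labels, and −33.3 to −18.3 for the cycling share in each.

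No value was obtained with the 7 other genes as the rule (at most 8 cells a library), for the Myod1 split and the labels with at least 3 rule genes, for any label without rest replicate 1, and for resolved without resolved replicate 3 or with both labels alone.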

Other observations

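Glycolysis genes did not move one way. Against all other cells 6 of 19 were higher and 4 lower (median log2 fold change 0.48), 7 and 2 of 19 against fibroblast cells, and 2 and 5 of 16 against pericyte cells. All genes tested gave 8.23% and 12.9%, 9.7% and 14.3%, and 19% and 22.7% in the same order. The counts against pericyte cells and the count lower than in fibroblast cells lay near these shares. With scaling factors from all genes tested the first comparison gave 2 and 4. Hk2, the inducible hexokinase, stood at 219 CPM in rest 1, 438 in peak 1, 291 in peak 3, 316 in resolving 1, 265 in resolving 3 and 305 in resolved 3, against 127 to 256 in all other cells. It was higher in 6 of 6 libraries (log2 fold change 0.72, SE 0.20, edgeR adjusted p = 0.00311) and did not pass against fibroblast cells (0.52, SE 0.21, edgeR adjusted p = 0.051). Tpi1, triose phosphate isomerase, was lower than in all other cells (−0.74, SE 0.23, edgeR adjusted p = 0.0103).

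Of the interferon-induced genes, 1 of 16 was higher and 5 were lower than in all other cells, 3 and 1 of 15 against fibroblast cells, and 2 and 0 of 7 against pericyte cells. All genes tested gave 8.23% and 12.9%, 9.7% and 14.3%, and 19% and 22.7% in the same order. B2m, the light chain of class I antigen-presenting molecules, lay at 454 to 791 CPM, below the other cells in 6 of 6 libraries (−1.06, SE 0.17, edgeR adjusted p = 1.17e-08). Isg15 was higher than in fibroblast cells (2.75, SE 0.38, edgeR adjusted p = 1.47e-11), with peak 1 the highest library at 303 CPM. Of the receptors for TGF-beta and IL-6 family ligands, 2 of 17 were lower than in all other cells and none higher, 2 of 15 were lower than in fibroblast cells, and 1 of 7 was higher and 1 lower than in pericyte cells. These shares lie near those of all genes tested, of which 12.9% were lower than in all other cells and 14.3% lower than in fibroblast cells. Those lower than in all other cells were Tgfbr2 (−1.89, SE 0.39, edgeR adjusted p = 2.06e-05) and Il6st, the shared IL-6 family receptor chain (−0.85, SE 0.30, edgeR adjusted p = 0.0256). With scaling factors from all genes tested these counts were 4 of 17 and 6 of 15.

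Of the imprinted growth genes, 4 of 13 were higher and 2 lower than in all other cells (all genes tested 8.23% and 12.9%). Against fibroblast cells the counts were 4 and 2 of 12 (all genes 9.7% and 14.3%). Against pericyte cells they were 2 and 2 of 8 (all genes 19% and 22.7%). The counts of lower genes lay near the shares of all genes. Meg3, a maternally expressed long RNA, lay at 785 to 2308 CPM (median 2058) against 406 to 510 in all other cells, above in 6 of 6 libraries (1.91, SE 0.17, edgeR adjusted p = 4.52e-28). Tenocyte markers were lower than in all other cells in 4 of 6 genes tested, chondrocyte markers in 4 of 5 and osteoblast markers in 5 of 6, with none higher. Of the pericyte markers 1 of 8 was higher and 4 lower than in all other cells, of the smooth muscle markers 0 and 3 of 6, of the Schwann cell markers 0 and 3 of 4, of the immune markers 0 and 2 of 5, of the erythroid markers 1 and 4 of 5 and of the fibroblast markers 1 and 6 of 7. The erythroid counts mix unlike libraries, since the erythroid sum was 86329 CPM in peak 3 and 219 to 627 CPM in the other libraries compared. The fibroblast marker that was higher was Pdpn (podoplanin), at 213 to 393 CPM (median 375) against 94.3 to 132 (1.68, SE 0.20, edgeR adjusted p = 3.39e-15), above in 6 of 6 libraries.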
